A study of Mus musculus with 14 samples.

Results

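The genes described are the Zfp-named zinc finger genes of mouse microglia, taken as every gene whose symbol is Zfp followed by digits alone, except Zfp36, and whose mean level across the 14 libraries reached 30 normalized counts. Of 336 symbols that fit the name, 282 reached that level, 16 averaged from 10 to under 30, 20 averaged above 0 but under 10, and 18 were listed at 0 in every library. The 282 members are part of 24394 named genes in the deposited table, of which 11646 with a mean of at least 10 were tested. The members were chosen by their symbol and by this mean level, which is therefore a description and supports nothing here. Just outside the minimum were Zfp428 (26.9 normalized counts on average), Zfp296 (27.6) and Zfp112 (27.9), and just inside were Zfp948 (32.4), Zfp526 (33.1) and Zfp458 (36.7).

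The libraries came from microglia of C57BL/6 mice aged 18 months that carried a pump delivering antibody into the cerebrospinal fluid for 1 month. One group of 7 libraries had received a blocking antibody against CD22, an inhibitory sialic acid receptor, and the other 7 a control IgG antibody. All mice of both groups had been cannulated, and all libraries came from the brain side opposite the cannula, from about 20000 live cells sorted for CD11b and low CD45. The comparison asks which transcripts differ in aged microglia when CD22 is blocked. Separate mice are not stated for the libraries, so p-values cover the spread between these libraries only.

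Most Zfp-named proteins hold a row of C2H2 zinc fingers, short loops folded around a zinc ion that together read a stretch of DNA. A large share also carry a KRAB box, which recruits the corepressor TRIM28 and, through it, the histone methyltransferase SETDB1 and HP1 proteins. KRAB zinc finger proteins are best known for silencing retroelements and for holding DNA methylation at imprinted genes, mostly from work in embryonic stem cells and embryos. Other Zfp-named proteins have no KRAB box and act as promoter-binding factors, chromatin subunits, RNA-binding proteins or ubiquitin ligases. The symbol is thus a shared name rather than a shared job.

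The protein of each member's longest annotated coding transcript was searched for the KRAB A-box and for the finger pattern. A KRAB match was found in 164 members and none in 118, and a missing match covers only the 1 protein searched per gene. At least 1 finger pattern was found in 275 members, with a median of 11 and up to 36 in Zfp142. Pseudogenes accounted for 2 members, Zfp783 and Zfp939. The members lay on 20 chromosomes, with 74 on chromosome 7, 33 on chromosome 17 and 28 on chromosome 13.

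Library totals of deposited normalized counts ran from 27394162 to 29235291, and whole reads, recovered for 13 libraries, ran from 20246743 to 38148494. All 10 microglia markers were well above the minimum, with summed levels of 1725800 to 1842100 normalized counts in the anti-CD22 libraries and 1641400 to 1922100 in the IgG libraries. Neuron markers summed to 21.3 to 116 in anti-CD22 libraries and 26.8 to 114 in IgG libraries. Lymphocyte markers (1 of 2 tested higher) summed to 1133 to 1469 in anti-CD22 libraries and 1208 to 1647 in IgG libraries, nearly all of it Cd79b, at 1118 to 1452 in anti-CD22 libraries and 1208 to 1640 in IgG libraries, while Cd3e, Cd3g, Ms4a1 and Ncr1 were at 0 throughout. Border-associated macrophage markers summed to 264 to 2443 in anti-CD22 libraries and 157 to 1749 in IgG libraries, with 6 of 7 tested markers higher with anti-CD22. Neutrophil markers summed to 14345 to 26792 in anti-CD22 libraries and 16143 to 66951 in IgG libraries, with 1 of 8 tested markers higher. In most libraries the larger part was Csf3r, at 14337 to 16659 in anti-CD22 libraries and 12944 to 17925 in IgG libraries. Every other tested neutrophil marker fell to 0 in some library of both groups. The sum of 66951 was that of IgG replicate 1 alone, and the next IgG library had 29152. Astrocyte markers (3 of 5 tested higher) summed to 6657 to 8537 in anti-CD22 libraries and 5927 to 8617 in IgG libraries. Nearly all of the astrocyte sum was Slc1a3, at 6529 to 8291 in anti-CD22 libraries and 5812 to 8470 in IgG libraries. Oligodendrocyte markers (0 of 5) summed to 4949 to 5660 in anti-CD22 libraries and 5451 to 6710 in IgG libraries, and endothelial cell and pericyte markers (3 of 4) to 1018 to 1602 in anti-CD22 libraries and 1004 to 1344 in IgG libraries. The part of any of these cells in the results on Zfp-named genes was not tested. In bulk samples such as these, fewer cells of a type and less RNA per cell cannot be told apart.

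The relation of level to transcript length and GC content differed between libraries, most of all in 3 anti-CD22 libraries, while the ranges of the groups overlapped. Within a library, the Spearman rho across genes of transcript length with a gene's centred level (its level minus its mean across libraries) ran from -0.27 to 0.33 in the anti-CD22 libraries and from -0.26 to 0.00 in the IgG libraries. Anti-CD22 replicates 1, 2 and 3 stood apart, with rho of 0.31, 0.29 and 0.33. The rho of GC content with centred level ran from -0.40 to 0.26 in the anti-CD22 libraries and from 0.01 to 0.28 in the IgG libraries. In anti-CD22 replicates 4 to 7 alone it ran from -0.02 to 0.26. The main sets of members below are therefore also given with the length and GC trend of every library removed and without those 3 libraries, while values of single members under these settings are given for some of them.

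The Zfp-named genes as a whole stood slightly higher with anti-CD22. Of the 282 members, 220 (78.0%) had a positive log2 fold change, on the scale of log2 of the normalized count plus 1, beside 5851 of 11646 genes tested (50.2%). The median log2 fold change of the members was 0.16, with quartiles of 0.02 and 0.32, beside 0.00 for all genes tested. None of the members passed a limma adjusted p of 0.05, against a background of 0.00859% of genes called, which is Ier2 alone. The smallest adjusted p among members was 0.108. At an unadjusted limma p under 0.05 there were 53 members higher and 5 lower, where 6.8% of all genes tested were higher and 5.95% lower. In 31 of the 282 members every anti-CD22 library exceeded the IgG median, beside 5.19% of all genes tested. On the reads of 13 libraries, edgeR called 0 members (background 0.0%) with 49 at an unadjusted p under 0.05, and DESeq2 called 3 (background 0.343%) with 50. The DESeq2 background is a share of all 11646 genes, of which 2896, 57 of them members, had no adjusted p and could not be called.

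**Figure D1:**
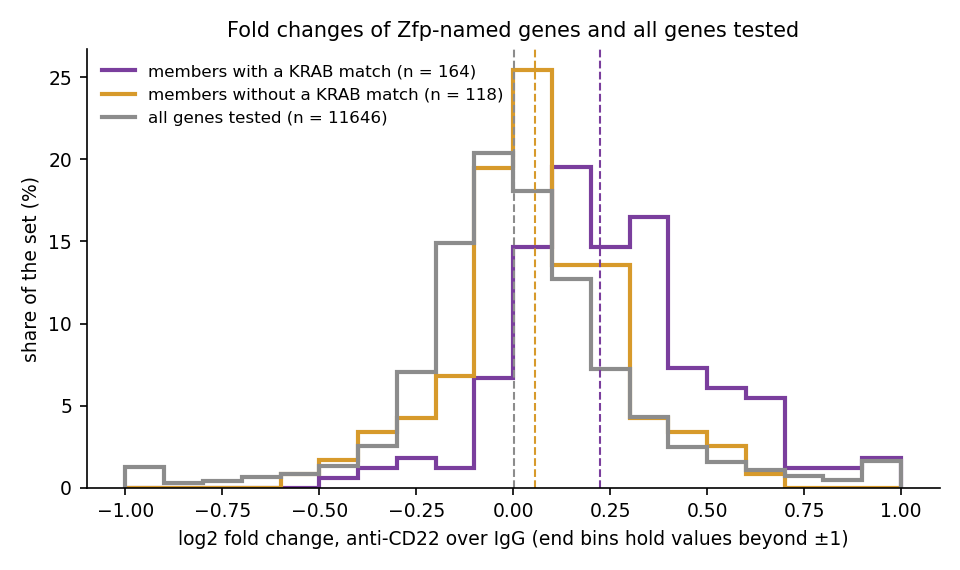
Share of each set (%) in bins of 0.1 of the log2 fold change of anti-CD22 over IgG, for 164 members with a KRAB match, 118 members without and all 11646 genes tested, with dashed lines at the medians. The members with a KRAB match lie to the right, at a median of 0.22, while the others (0.06) lie near all genes tested (0.00).

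The positive values were mostly those of the KRAB class. Among the 164 members with a KRAB match, 145 (88.4%) had a positive log2 fold change, with a median of 0.22, and 44 were higher and 1 lower at an unadjusted p under 0.05. Among the 118 members without a match, 75 (63.6%) were positive, with a median of 0.06, and 9 were higher and 4 lower. Another 61 genes at the same minimum level had a KRAB match but another kind of symbol, and 53 of them (86.9%) were positive, with a median of 0.22. The KRAB box was not used to choose the members, but it was used to split them with earlier results known, so no test was made of the split.

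Members with more fingers had higher median log2 fold changes, and the number of fingers overlaps with the KRAB class. Of 34 members with 0 to 3 finger patterns, 16 were positive, with a median of -0.01. Of 60 members with 4 to 8 patterns, 42 were positive, with a median of 0.08. Of 94 members with 9 to 12 patterns, 83 were positive, with a median of 0.20, and of 94 with 13 or more, 79 were positive, with a median of 0.21. From the fewest fingers to the most, the medians were -0.04, 0.10, 0.14 and 0.11 with the length and GC trend removed, so that the order of the upper bins turned, and -0.02, 0.08, 0.11 and 0.12 without anti-CD22 replicates 1, 2 and 3. Across the 282 members the rho between log2 fold change and the number of finger patterns was 0.30, given as a description, since genes of a library share its depth and base composition.

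With the length and GC trend removed, 212 of the 282 members (75.2%) were positive and the median was 0.11, beside 52.7% and 0.01 for all genes tested. The KRAB class then had 139 of 164 positive with a median of 0.16, and the members without a match had 73 of 118 with a median of 0.04. The 61 KRAB genes of other names had 49 positive and a median of 0.14. Without anti-CD22 replicates 1, 2 and 3, a setting added after seeing the data, 198 of 282 members were positive and the median was 0.09, with 119 of 164 and 0.11 in the KRAB class and 79 of 118 and 0.07 in the others. The 61 KRAB genes of other names then had 37 positive and a median of 0.11. The KRAB class and the other members therefore lay closer together in the 11 remaining libraries than in all 14.

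The level of the members was also followed library by library, as the mean of log2 values centred per gene. For the KRAB class it averaged 0.13 ± 0.15 in the anti-CD22 libraries and -0.13 ± 0.08 in the IgG libraries (SD, n = 7 each). The anti-CD22 libraries split, with 0.25, 0.31 and 0.26 in replicates 1, 2 and 3, then 0.06, -0.02, -0.07 and 0.12 in replicates 4 to 7. The IgG values were -0.10, 0.02, -0.11, -0.18, -0.23, -0.18 and -0.12 in replicates 1 to 7. All but 1 of the IgG libraries thus lay below every anti-CD22 library, and IgG replicate 2 was the exception. For members without a match the means were 0.03 ± 0.08 in anti-CD22 libraries and -0.03 ± 0.07 in IgG libraries (SD, n = 7 each), with wide overlap.

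The 3 anti-CD22 libraries with the highest member levels were those with the steepest length trend. The same 3 libraries, replicates 1, 2 and 3, had the lowest rho of GC content with level, at -0.31, -0.40 and -0.36. They also had the highest border-associated macrophage marker sums of the anti-CD22 libraries, at 1725, 2443 and 1855 normalized counts, where the other 4 ran from 264 to 890. IgG replicate 2, the highest IgG library in the KRAB class, had the highest macrophage sum of the IgG libraries, at 1749. In anti-CD22 replicates 7, 4, 6 and 5 the sums were 890, 774, 475 and 264. Their KRAB class means were 0.12, 0.06, -0.07 and -0.02. In IgG replicates 5, 4, 3 and 6 the sums were 480, 362, 306 and 157, with means of -0.23, -0.18, -0.11 and -0.18. Between libraries of different groups the order was reversed in some cases. IgG replicates 1 and 7 had macrophage sums of 1127 and 1197 and KRAB class means of -0.10 and -0.12. Anti-CD22 replicates 4 and 7 had lower sums, at 774 and 890, and higher means, at 0.06 and 0.12. Anti-CD22 replicate 7 had the lowest length rho of all 14 libraries, at -0.27, and its KRAB class mean of 0.12 was above every IgG library. The GC rho of anti-CD22 replicate 7 was -0.02, below that of every IgG library (0.01 to 0.28). With the trend removed, the mean over all members was 0.07 ± 0.04 in anti-CD22 libraries and -0.07 ± 0.07 in IgG libraries (SD, n = 7 each). Members took 0.616% to 0.716% of the normalized counts in anti-CD22 libraries and 0.563% to 0.629% in IgG libraries. The part of the length and GC trend and of the macrophage markers in the members' levels was not tested beyond these values.

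**Figure D2:**
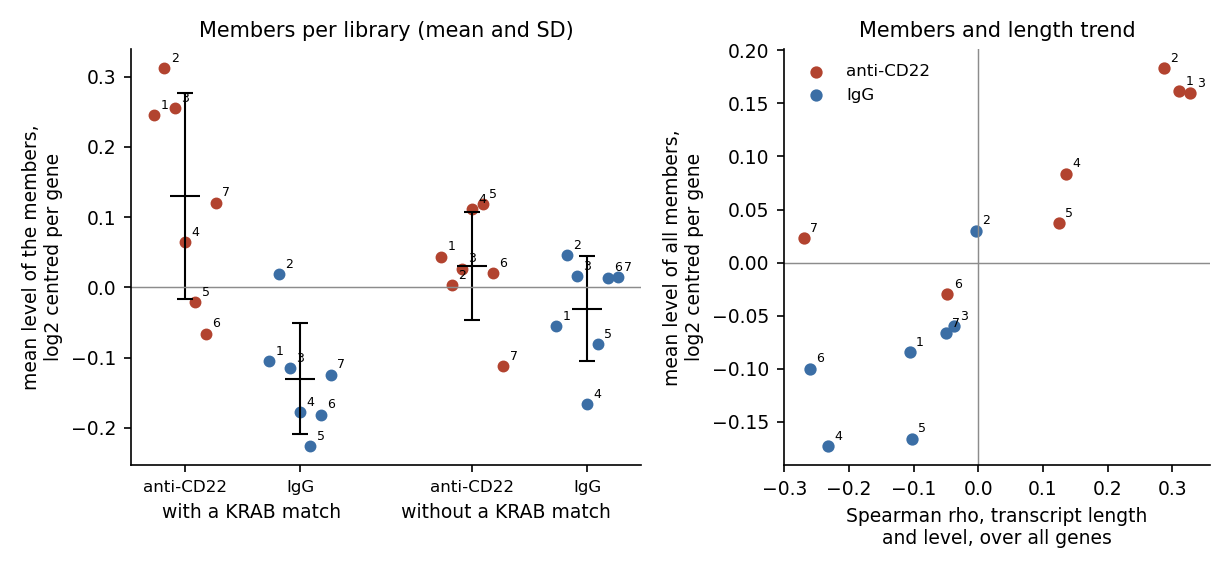
Left, mean level per library (log2 centred per gene) of members with and without a KRAB match, with group mean and SD, and right, the mean level of all members against the Spearman rho of transcript length and level over all genes in that library, with replicate numbers beside the points. Anti-CD22 replicates 1, 2 and 3 sit at the top right, at a rho of 0.29 to 0.33, and anti-CD22 replicate 7 at the far left.

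Transcript length was then taken into account by quartile, with bounds of 2180, 3340 and 4727 bases over all genes tested. The medians of all genes tested ran upward with length, at -0.09, -0.03, 0.03 and 0.14 in quartiles 1 to 4. The KRAB class had 0.33 (13 members), 0.24 (64 members), 0.19 (52 members) and 0.25 (35 members), above all genes tested in each quartile. Members without a match had -0.06, 0.07, 0.01 and 0.18. With the trend removed the KRAB class medians were 0.29, 0.18, 0.14 and 0.10, and those of all genes tested were 0.01 in the first 3 quartiles and 0.02 in the longest. Without anti-CD22 replicates 1, 2 and 3 the KRAB class medians were 0.24, 0.13, 0.06 and 0.11, and those of all genes tested were -0.03, -0.01, 0.00 and 0.05. Low GC content went with higher values as well, with a median of 0.27 for 108 KRAB class members in the lowest GC quartile beside 0.09 for all genes tested there. These were 0.17 and 0.01 with the trend removed, and 0.11 and 0.01 without those 3 libraries. In the highest GC quartile 17 of 38 members were positive, with a median of -0.03, beside -0.08 for all genes tested there. Only 5 of these members had a KRAB match, with 2 positive and a median of -0.02. With the trend removed 25 of the 38 were positive (median 0.07), and without those 3 libraries also 25 (median 0.13). Across the 282 members, log2 fold change had a rho of 0.09 with transcript length and of -0.41 with GC content.

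**Figure D3:**
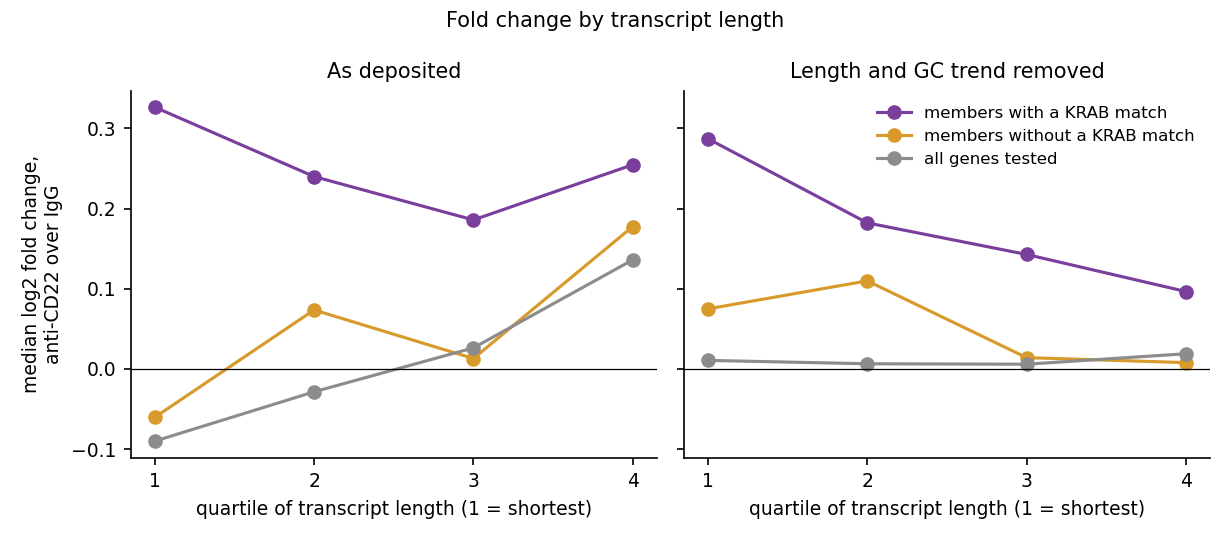
Median log2 fold change of anti-CD22 over IgG by quartile of transcript length, as deposited and with the length and GC trend of each library removed. The median of members with a KRAB match lies above that of all genes tested in every quartile of both panels, with the widest gap in the shortest quartile.

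The 12 members with the smallest p among those higher all had a KRAB match. Among all 282 members, 1 had groups that did not overlap with anti-CD22 higher, Zfp229 of these 12, and 0 with anti-CD22 lower. Over all genes tested these shares were 0.137% and 0.12%, so 1 gene is no result about the members as a set. Zfp229 (ENSMUSG00000061544, chromosome 17: 21730795 to 21769342, GRCm38) encodes a KRAB protein with 16 finger patterns. It had a lowest, median and highest value of 192, 268 and 367 normalized counts in anti-CD22 libraries and of 104, 141 and 157 in IgG libraries, so every anti-CD22 library was above every IgG library. The means were 259 ± 63.6 in anti-CD22 libraries and 138 ± 17.0 in IgG libraries (SD, n = 7 each), a log2 fold change of 0.88 (SE 0.17, 95% interval 0.52 to 1.24, limma adjusted p = 0.108). The value was 0.75 with the trend removed and 0.81 without anti-CD22 replicates 1, 2 and 3. DESeq2 called it, with an adjusted p of 0.00294.

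Zfp84 (chromosome 7: 29768552 to 29779821) is a KRAB protein gene with 11 finger patterns, expressed at a higher level. Its lowest, median and highest values were 1139, 1344 and 1436 normalized counts in anti-CD22 libraries and 818, 982 and 1169 in IgG libraries. A single anti-CD22 library, replicate 5, fell within the IgG range. The log2 fold change was 0.42 (SE 0.10, limma adjusted p = 0.163), and DESeq2 called it with an adjusted p of 0.0465. It was 0.38 with the trend removed and 0.41 without anti-CD22 replicates 1, 2 and 3.

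Zfp189 (chromosome 4: 49521176 to 49531517) encodes a KRAB protein that has been tied in mouse prefrontal cortex to resilience to social stress. Its lowest, median and highest values were 519, 619 and 707 normalized counts in anti-CD22 libraries and 341, 411 and 543 in IgG libraries. The groups overlapped slightly, with all 7 anti-CD22 libraries above the IgG median. The log2 fold change was 0.53 (SE 0.12, limma adjusted p = 0.163), and DESeq2 called it with an adjusted p of 0.0465. It was 0.52 under both alternatives.

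Of the other 9, Zfp551 (chromosome 7: 12415153 to 12422751) had the highest log2 fold change at 1.42 (SE 0.42), with 154 ± 47.3 normalized counts in anti-CD22 libraries and 71.1 ± 51.9 in IgG libraries (SD, n = 7 each). Its IgG values ran from 14.5 to 160, so that fold rests on low IgG libraries. Zfp442 stood at 171 ± 54.0 in anti-CD22 libraries and 94.9 ± 24.9 in IgG libraries, and 13.2% of its 100-base stretches also occur in transcripts of other genes, which makes its counts uncertain. Zfp566, with 13.1% shared, stood at 238 ± 57.3 in anti-CD22 libraries and 146 ± 48.3 in IgG libraries. Zfp101 stood at 243 ± 50.2 in anti-CD22 libraries and 150 ± 56.4 in IgG libraries, and Zfp607 (Zfp607a in the annotation) at 332 ± 65.2 in anti-CD22 libraries and 211 ± 59.7 in IgG libraries. The remaining 4 were Zfp113, Zfp128, Zfp712 and Zfp871, with log2 fold changes of 0.36, 0.45, 0.49 and 0.43. The limma adjusted p of these 9 ran from 0.208 to 0.229.

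All 12 kept their direction with the trend removed and without anti-CD22 replicates 1, 2 and 3, and 10 of them were smaller with the trend removed. Zfp113 then had 0.22 in place of 0.36, and Zfp871, whose annotated transcript of 10851 bases is long, had 0.19 in place of 0.43. The plot of these members by library shows the spread behind each mean.

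**Figure D4:**
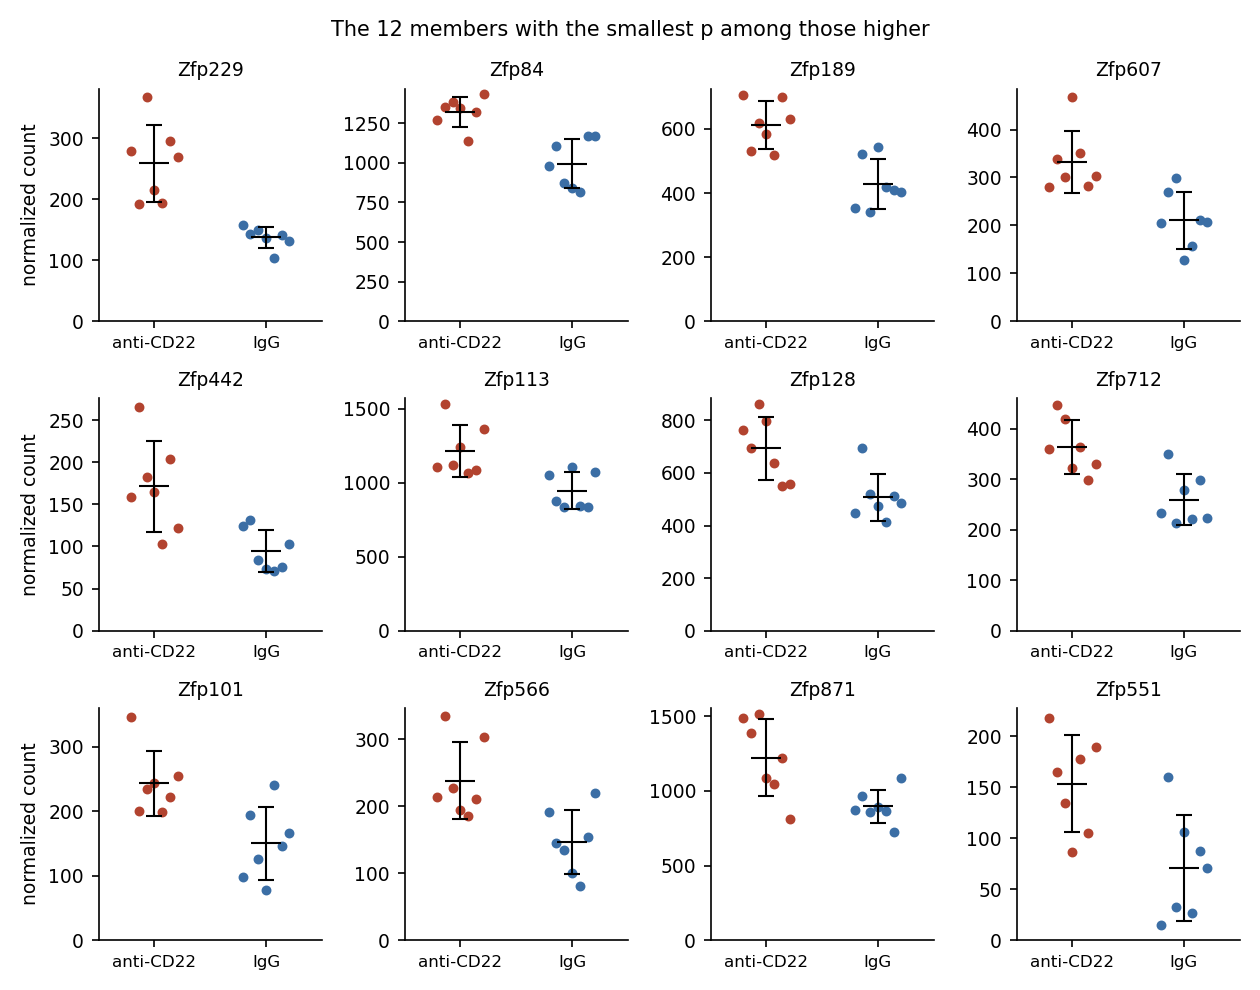
Normalized counts of the 12 members with the smallest p among those higher, by library, with the group mean and SD (7 libraries each). In Zfp229 the anti-CD22 libraries (192 to 367) lie above all IgG libraries (104 to 157), and in the other 11 the groups overlap.

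Across all members, 30 (10.6%) had a log2 fold change above 0.5 and 1, Zfp420, was below -0.5, beside 5.40% of all genes tested above 0.5. The largest was that of Zfp454, at 1.44 (SE 0.70), a gene near the minimum level with 61.5 ± 26.6 normalized counts in anti-CD22 libraries and 32.0 ± 20.8 in IgG libraries (SD, n = 7 each). The groups differed by about the spread between libraries. The SE of a member's log2 fold change ran from 0.06 to 0.81.

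The promoters of the members were searched for 8 short motifs, on both strands, in the 250 bases before the gene start given by RefSeq (GRCm38.p6). A promoter was matched for 237 of the 282 members (146 with a KRAB match, 91 without) and for 9231 of the genes tested. The letters ACTACANNT, part of the element bound by Zfp143, were found in 21.1% of member promoters, in 26.7% of those of the KRAB class and in 12.1% of the others, beside 5.80% for all genes tested. In the KRAB class the median log2 fold change was 0.28 with these letters and 0.23 without them. Among members without a KRAB match it was the other way round, at -0.07 with the letters (5 of 11 positive) and 0.04 without them. Zfp143, itself a member, had 1112 ± 205 normalized counts in anti-CD22 libraries and 935 ± 138 in IgG libraries (SD, n = 7 each), a log2 fold change of 0.24 (limma adjusted p = 0.424).

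The other motifs were less often found in the KRAB class or near the background. The letters GGGCGGG, bound by SP1 and KLF factors, were in 22.6% of KRAB class promoters and in 44.1% of all, and CCGGAAG of the ETS family in 19.2% and 15.2%. Matches of different motifs were counted separately and may overlap. The letters GCGCATGCG of NRF1 were in 3.42% of KRAB class promoters and in 3.29% of all, and TGACGTCA, the cyclic AMP response element, in 2.74% and 2.81%. The AP-1 site TGANTCA was in 2.74% of KRAB class promoters and in 3.88% of all, the YY1 site AAGATGGCG in 0.685% and 1.28%, and TCTCGCGAG in 0% and 1.40%. KRAB class promoters held a median of 9 CpG pairs, beside 16 for all genes tested. Promoters of 4 of the 12 members just described are shown because each holds the Zfp143 element near its gene start, written 5′ to 3′ on the strand of the gene, with the element in capitals as its complement ANNTGTAGT. They are those of Zfp84 (chr7:29768302-29768551, plus strand), Zfp189 (chr4:49520926-49521175, plus strand), Zfp128 (chr7:12880928-12881177, plus strand) and Zfp712 (chr13:67061171-67061420, minus strand).
Zfp84: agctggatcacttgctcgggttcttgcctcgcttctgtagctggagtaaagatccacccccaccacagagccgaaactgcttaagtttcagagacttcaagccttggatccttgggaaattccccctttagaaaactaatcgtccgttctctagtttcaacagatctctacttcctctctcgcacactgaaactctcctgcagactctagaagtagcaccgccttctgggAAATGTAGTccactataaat
Zfp189: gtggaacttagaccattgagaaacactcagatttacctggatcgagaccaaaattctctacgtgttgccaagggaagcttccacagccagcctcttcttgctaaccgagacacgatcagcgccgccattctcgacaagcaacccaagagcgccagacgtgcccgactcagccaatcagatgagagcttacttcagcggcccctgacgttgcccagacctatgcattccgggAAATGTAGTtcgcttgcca
Zfp128: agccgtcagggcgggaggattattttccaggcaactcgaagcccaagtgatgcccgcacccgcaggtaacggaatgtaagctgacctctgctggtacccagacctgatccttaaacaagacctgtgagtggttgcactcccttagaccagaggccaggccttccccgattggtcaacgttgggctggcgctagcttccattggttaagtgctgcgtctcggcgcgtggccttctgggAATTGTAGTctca
Zfp712: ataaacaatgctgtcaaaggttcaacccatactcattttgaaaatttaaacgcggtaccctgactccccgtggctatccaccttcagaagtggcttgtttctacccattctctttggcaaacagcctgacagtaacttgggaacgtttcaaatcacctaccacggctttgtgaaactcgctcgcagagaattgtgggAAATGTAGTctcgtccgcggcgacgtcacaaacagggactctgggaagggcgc
The element begins 20, 19, 13 and 53 bases before the annotated start in Zfp84, Zfp189, Zfp128 and Zfp712. A match of letters describes the window and is not evidence of binding.

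Members lower with anti-CD22 were fewer and mostly without a KRAB match, which was found in 1 of the 8 with the smallest p (Zfp282). Zfp276 (chromosome 8: 123254195 to 123269745) had lowest, median and highest values of 796, 1011 and 1125 normalized counts in anti-CD22 libraries and 1003, 1129 and 1400 in IgG libraries. Every anti-CD22 library was under the IgG median, though the groups overlapped, and the log2 fold change was -0.28 (SE 0.09, limma adjusted p = 0.275). It was -0.23 with the trend removed and -0.22 without anti-CD22 replicates 1, 2 and 3. Zfp219, a partner of SOX9 in mouse cartilage, had 135, 164 and 188 in anti-CD22 libraries and 114, 242 and 313 in IgG libraries, a log2 fold change of -0.47 (SE 0.20). Its IgG spread was the wider, with IgG replicate 6 below every anti-CD22 library.

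Zfp420, with 19 finger patterns, averaged 122 ± 39.8 normalized counts in anti-CD22 libraries and 182 ± 57.0 in IgG libraries (SD, n = 7 each). Zfp282 averaged 498 ± 118 in anti-CD22 libraries and 611 ± 89.4 in IgG libraries. The log2 fold changes of Zfp414, Zfp771, Zfp787 and Zfp446 were -0.35, -0.44, -0.31 and -0.33, and 42.0% of the stretches of Zfp414 are shared with other genes. Without anti-CD22 replicates 1, 2 and 3 the value of Zfp771 was -0.02 and that of Zfp787 -0.07. The limma adjusted p of these 8 ran from 0.275 to 0.487.

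KRAB zinc finger genes are known to have multiplied by local duplication, and many members are neighbours in the genome. Grouping members no more than 250 kb apart gave 25 clusters of at least 3, holding 148 members, 116 of them with a KRAB match. Inside clusters 122 of 148 members were positive (median 0.19), and outside them 98 of 134 (median 0.10). Removing the trend gave 118 (median 0.14) and 94 (median 0.07), and without anti-CD22 replicates 1, 2 and 3 they were 105 (median 0.12) and 93 (median 0.06). The cluster median was above 0 in 23 of the 25 clusters, and every member was positive in 12 clusters with 57 members. After removal of the trend 24 medians were above 0 and 10 clusters with 39 members were wholly positive, and without those 3 libraries 21 medians and 7 clusters with 27 members.

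The cluster with the most members, on chromosome 13 from 67038596 to 67827002, held 17 members, all with a KRAB match and all positive, with a median of 0.29. It runs from Zfp712 to Zfp273 and includes Zfp87, at 2015 ± 195 normalized counts in anti-CD22 libraries and 1656 ± 193 in IgG libraries (SD, n = 7 each), and Zfp58, with 49.1% of its stretches shared with other genes, at 940 ± 110 in anti-CD22 libraries and 755 ± 110 in IgG libraries. The log2 fold changes in it ran from 0.09 for Zfp759 to 0.65 for Zfp458, whose level is close to the minimum. Chromosome 13 as a whole had a median of 0.05 over its 446 genes tested. With the trend removed, Zfp738 in this cluster was at -0.06 in place of 0.20, and the other 16 members stayed positive, with a cluster median of 0.22. Without anti-CD22 replicates 1, 2 and 3, 13 of the 17 were positive, with a median of 0.10.

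Other clusters were mixed. On chromosome 7 from 29768552 to 30169750, 13 of 15 members were positive, with Zfp566 highest at 0.74 and Zfp420 lowest at -0.58. On chromosome 17 from 21383748 to 22071168, 8 of 10 were positive, with Zfp229 at 0.88 and Zfp760 at -0.27. A cluster on chromosome 7 from 27731389 to 28014115 had all 5 positive, from Zfp59 at 0.12 to Zfp607 at 0.68. Duplicated neighbours can share reads: at least 10% of 100-base stretches were shared with another gene in 24 members and at least 50% in 6. The 144 KRAB class members with under 10% shared had 125 positive and a median of 0.21, which were 120 and 0.14 with the trend removed and 105 and 0.11 without those 3 libraries. Exons overlapped another gene on the same strand in 26 members and on the other strand in 67, and 108 of the 126 KRAB class members without any overlap were positive, with a median of 0.21, which were 107 and 0.16 with the trend removed and 93 and 0.12 without those 3 libraries.

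**Figure D5:**
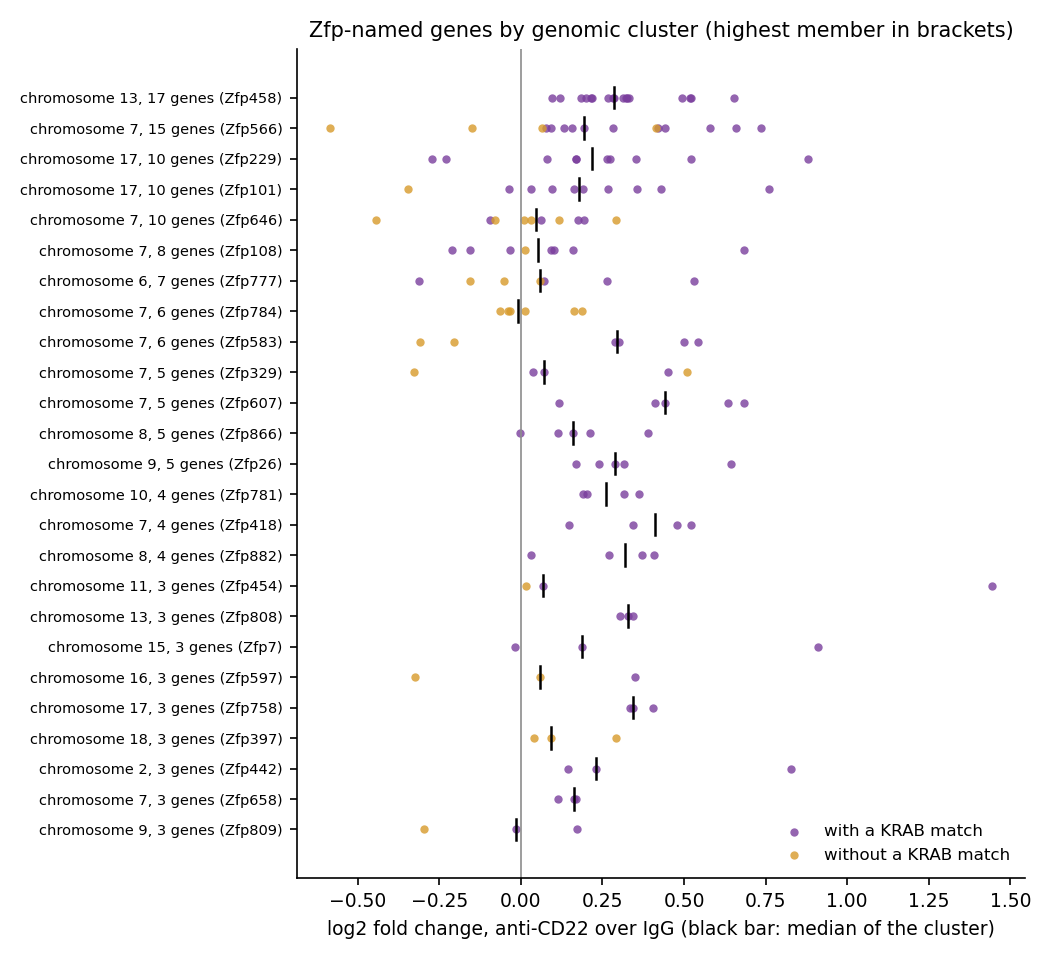
Log2 fold change of anti-CD22 over IgG for each of 148 members in 25 genomic clusters, with 1 row per cluster, coloured by KRAB match, and a black bar at the cluster median. The chromosome 13 cluster of 17 lies wholly right of 0, from 0.09 to 0.65, and the chromosome 7 cluster of 15 runs from -0.58 to 0.74.

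Members listed for a part in silencing retroelements or keeping imprints stood higher without passing the test. All 7 of those at the minimum level were positive (median 0.27 in log2 fold change), and 0 passed a limma adjusted p of 0.05 while 2 had an unadjusted p under 0.05. The KRAB class as a whole had 145 of 164 positive (88.4%), a median of 0.22 and 44 higher at that p. Of all genes tested, 6.8% were higher at that p. The 7 therefore do not stand out from the KRAB class. Zfp568, which represses a placental transcript of Igf2 in the mouse embryo, had a lowest and highest value of 140 and 194 normalized counts in anti-CD22 libraries and of 80.3 and 204 in IgG libraries, a log2 fold change of 0.58 (SE 0.20, limma adjusted p = 0.281). Zfp961 had a log2 fold change of 0.37. Zfp445, which protects imprints, averaged 438 ± 186 in anti-CD22 libraries and 348 ± 125 in IgG libraries (SD, n = 7 each), and without anti-CD22 replicates 1, 2 and 3 its log2 fold change was -0.18 in place of 0.24. Zfp809, which silences murine leukaemia virus in embryonic stem cells, averaged 292 ± 72.4 in anti-CD22 libraries and 259 ± 71.4 in IgG libraries. Zfp932, which represses endogenous retroviruses in mouse stem cells, had 0.28 with 22.1% of its stretches shared, and all stretches of Zfp708 (0.27) are shared, so both are uncertain. Removing the trend left all 7 positive, with a median of 0.20, and without those 3 libraries 5 of the 7, with a median of 0.04. Zfp110, which binds the neurotrophin receptor, was on the list too, and its place among the 7 is uncertain. It was the most abundant of the 7, at 3383 ± 358 in anti-CD22 libraries and 3215 ± 245 in IgG libraries. Its log2 fold change of 0.07 was the lowest of the 7.

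Promoter and chromatin factors, listed by role as outside the KRAB class, had 14 of 19 positive, with a median of 0.11. At an unadjusted limma p under 0.05, 2 were higher and 2 lower. The list, which includes Zfp746, was not checked against the KRAB match, so it may hold members of the KRAB class. Removing the trend left 12 positive, with a median of 0.04 and 0 higher and 2 lower, and without anti-CD22 replicates 1, 2 and 3 also 12, with a median of 0.09 and 2 higher and 0 lower. Of all genes tested, 625 of 11581 were higher and 492 lower at that p with the trend removed. Without those 3 libraries 289 of 11646 were higher and 292 lower. Zfp592, Zfp687 and Zfp532 encode subunits that join ZMYND8 in human cells in a chromatin-reading complex, and their log2 fold changes were 0.29, 0.26 and 0.63. Zfp592 averaged 1432 ± 191 normalized counts in anti-CD22 libraries and 1176 ± 183 in IgG libraries (SD, n = 7 each), with all 7 anti-CD22 libraries above the IgG median (limma adjusted p = 0.305). Of the 3 most abundant in this group, Zfp710 averaged 2648 ± 333 in anti-CD22 libraries and 2504 ± 283 in IgG libraries. Zfp148, a factor that binds GC-rich promoters, averaged 2248 ± 317 in anti-CD22 libraries and 2381 ± 310 in IgG libraries. Zfp281, known for its part in leaving pluripotency, averaged 2172 ± 224 in anti-CD22 libraries and 2035 ± 159 in IgG libraries. Each of these 3 differences in mean was smaller than the SD of either group. The log2 fold change of Zfp148 was -0.08, against -0.31 with the trend removed (limma adjusted p = 0.318) and -0.20 without anti-CD22 replicates 1, 2 and 3.

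Of the members that act on RNA, ribosomes or ubiquitin, 5 of 10 were positive, with a median of 0.00 and 0 at an unadjusted p under 0.05 in limma. After removal of the trend 3 of the 10 were positive, with a median of -0.14, and without anti-CD22 replicates 1, 2 and 3 also 3, with a median of -0.06, again with 0 at that p. Zfp207, which loads BUB3 onto the mitotic spindle, averaged 4689 ± 554 normalized counts in anti-CD22 libraries and 4835 ± 466 in IgG libraries (SD, n = 7 each). Zfp622, a factor in the making of the large ribosomal subunit, averaged 1122 ± 251 in anti-CD22 libraries and 1205 ± 230 in IgG libraries. Zfp451, a SUMO ligase, averaged 1154 ± 144 in anti-CD22 libraries and 1139 ± 192 in IgG libraries. The ubiquitin ligase Zfp598, which marks collided ribosomes, had a log2 fold change of -0.28 (SE 0.19).

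The members with the highest level per kilobase of transcript differed little between the groups. Zfp706, which in mouse embryonic stem cells favours differentiation, led with a lowest, median and highest value of 12539, 13327 and 15197 normalized counts in anti-CD22 libraries and 12171, 13295 and 14814 in IgG libraries. The ranges nearly coincide, and the log2 fold change was 0.04 (SE 0.06, 95% interval -0.08 to 0.15, limma adjusted p = 0.822). On the scale of normalized counts per kilobase it was at 3068, followed by the KRAB genes Zfp869 at 1682, Zfp110 at 919, Zfp715 at 809.5 and Zfp69, a diabetes susceptibility gene of obese mice, at 772, with Zfp207 at 1452 between Zfp869 and Zfp110. The log2 fold changes of Zfp869, Zfp715 and Zfp69 were 0.00, 0.11 and 0.01. Among 53 members with a mean of at least 1000 normalized counts, 43 were positive with a median of 0.09, and among 103 from 300 to under 1000, 89 were positive with a median of 0.19. Removing the trend gave 38 (median 0.06) and 84 (median 0.13), and without anti-CD22 replicates 1, 2 and 3 they were 38 (median 0.06) and 79 (median 0.11).

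The corepressors that KRAB proteins work through were taken within a broader list of 34 silencing and chromatin genes. The list also holds genes not specific to KRAB proteins, such as Suv39h1, Ehmt1, Atrx and Nr2c1, so its counts are not those of corepressors alone. Of the 34 genes, 25 were positive, with a median log2 fold change of 0.13. With limma, 0 passed an adjusted p of 0.05, and at an unadjusted p under 0.05 there were 4 higher and 1 lower. After removal of the trend 23 were positive, with a median of 0.11 and 3 higher and 1 lower. Without anti-CD22 replicates 1, 2 and 3 there were also 23, with a median of 0.07 and 0 higher and 1 lower. At that p, 792 of all 11646 genes tested were higher and 693 lower in the main fit. With the trend removed there were 625 higher and 492 lower of 11581, and without those 3 libraries 289 and 292 of 11646. Atf7ip, which stabilizes SETDB1, averaged 1583 ± 234 normalized counts in anti-CD22 libraries and 1226 ± 201 in IgG libraries (SD, n = 7 each), a log2 fold change of 0.37 (SE 0.12, limma adjusted p = 0.236). Fam208a, which encodes the HUSH subunit TASOR, averaged 766 ± 226 in anti-CD22 libraries and 477 ± 161 in IgG libraries, a log2 fold change of 0.71 (SE 0.22) that was 0.49 with the trend removed. The histone methyltransferase gene Suv39h1 averaged 577 ± 89.1 in anti-CD22 libraries and 700 ± 119 in IgG libraries, and Mbd3 of the NuRD complex 1390 ± 204 in anti-CD22 libraries and 1553 ± 118 in IgG libraries. Of the core genes, named after their values were seen, Trim28 had 2765 ± 269 in anti-CD22 libraries and 2742 ± 232 in IgG libraries, and Mphosph8 170 ± 44.8 in anti-CD22 libraries and 166 ± 40.5 in IgG libraries. Both of these differences were smaller than the spread between libraries. Setdb1 had 1199 ± 123 in anti-CD22 libraries and 1355 ± 300 in IgG libraries, a log2 fold change of -0.15 (SE 0.13, limma adjusted p = 0.644), and its IgG median of 1372 exceeded all 7 anti-CD22 values.

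Zinc finger genes of other names were set beside the members at the same minimum level. Of 34 Zbtb-named genes, whose proteins pair fingers with a BTB domain, 23 were positive with a median of 0.15, and with the trend removed 18 were positive with a median of 0.01, against 24 and 0.11 without anti-CD22 replicates 1, 2 and 3. Zbtb33, which encodes the methyl-DNA reader Kaiso, averaged 54.8 ± 17.5 normalized counts in anti-CD22 libraries and 23.8 ± 13.8 in IgG libraries (SD, n = 7 each, limma adjusted p = 0.238). Of 17 Zkscan- and Zscan-named genes, 11 were positive with a median of 0.09. After removal of the trend 12 were positive with a median of 0.04, and without those 3 libraries the direction turned, with 6 positive and a median of -0.07. Zkscan3, a repressor of autophagy genes in human cells, averaged 1348 ± 183 in anti-CD22 libraries and 1633 ± 145 in IgG libraries. Of 15 Zc3h-named genes, which carry CCCH fingers that bind RNA, 10 were positive with a median of 0.06, which were 10 and 0.08 with the trend removed and 8 and 0.01 without those 3 libraries. Differences between these families and the members were not tested.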

How the data were processed

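RNA of sorted microglia was sequenced with paired reads of 100 bp from 7 anti-CD22 and 7 IgG libraries. Per the submitters' processing notes, the tools were bcl2fastq, STAR (build mm10) and DESeq2, with versions and annotation not given in the sources used here. Each deposited value is a normalized count, a signal made by the authors by dividing a gene's count by its library's size factor. Titles gave the groups and replicate numbers, and 0 columns were without a sample. Date-named entries (27) were left out.

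The test was limma on log2(normalized count + 1), with a mean-variance trend, two-sided, over 11646 genes with a mean of at least 10, with Benjamini-Hochberg adjustment over all of them. The members, lists and groupings were chosen with earlier results of these data known. Named members are the 12 with the smallest p among those higher and the 8 among those lower, the 6 with the highest level per kilobase, the 3 on each side of the minimum level, the 3 most abundant of each role group, and the 2 genes with the smallest p in each direction of each other list. Not every one is printed, and Zfp568, Zfp961, Zfp932, Zfp708, Zfp598, Zfp592, Zfp687, Zfp532, Zfp143, Zfp142 and the cluster genes were named after their values were seen.

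Whole reads, within 0.1 of a read for 100% of values, were recovered for 13 libraries and tested with edgeR and DESeq2, which gave no adjusted p for 57 members. Coordinates, lengths and GC content are those of GENCODE vM21 (GRCm38, the assembly of mm10), using each gene's longest transcript, matched for 24026 of 24394 symbols. The KRAB A-box was scored with a profile of 35 residues built from 113 matches. The score was above 0 bits in 14 of 19766 coding genes without a finger pattern. The length and GC trend was removed per library with natural splines of 5 degrees of freedom. On simulated counts of 11646 genes in this design, limma called 38 of 100 genes simulated at 1.5-fold, 78 of 100 at 2-fold and 3 unchanged genes. The libraries carry no molecular identifiers, so reads are not independent molecules. Tools were R 4.3.3, limma 3.58.1, edgeR 4.0.16, DESeq2 1.42.0, Python 3.11.15, pandas 2.3.3 and matplotlib 3.10.9.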

Additional observations from a re-analysis of the deposited data

Results flagged for a closer look

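Over the 33 named members and 4 mean levels per library, in 5 of 74 groups of 7 libraries a single library lay far from the other 6, where chance flags about 1 in 20 groups. Zfp101 stood at 346.86 normalized counts in anti-CD22 replicate 1, with the other anti-CD22 libraries from 199.51 to 255.04. Zfp607 stood at 467.51 in anti-CD22 replicate 4, with the others of its group from 280.96 to 350.77. Zfp128 stood at 694.16 in IgG replicate 2, with the other IgG libraries from 414.77 to 519.39. IgG replicate 6 was high in both Zfp622, at 1700.2 against 1010.8 to 1217.0 in the other IgG libraries, and Zfp787, at 657.04 against 387.49 to 479.0.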

How the results depend on the processing

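The median log2 fold change of the members stayed between 0.09 and 0.17 and the count higher between 198 and 223 of 282 over the settings run on all members, scaling included, without leaving out single libraries. Leaving out each library in turn gave a median of 0.13 to 0.18 and 213 to 223 members higher. With a minimum mean of 10 or 100 for members, 229 of 298 and 205 of 258 were higher. Members called numbered 0 in most settings, 1 with array quality weights (Zfp229), 3 with DESeq2 and from 0 to 2 when a library was left out, the 2 without anti-CD22 replicate 7 being Zfp229 and Zfp871. Genes called in all numbered 0 without a mean-variance trend, with the length and GC trend removed, without the 3 libraries with the steepest length trend and with edgeR, 2 with the replicate block, 4 at a threshold of 0.10, 8 with array quality weights and 40 with DESeq2, and from 0 to 43 when a library was left out, the 43 without anti-CD22 replicate 7. The cause was not tested. Of 957 alternative values of 33 named members, 920 kept their direction and side of the threshold, 6 passed it and 31, in 9 members, changed sign. With the trend removed, Zfp281 was at -0.0077, Zfp451 at -0.20, Zfp706 at -0.0386 and Zfp869 at 0.039. Without the 3 steepest libraries, Zfp445 was at -0.18, Zfp451 at -0.0533, Zfp622 at 0.12 and Zfp715 at -0.0829. Zfp869 was at 0.0108 rescaled to the same total, 0.0007 with TMM factors and 0.0078 with quantile normalization. Leaving out single libraries gave Zfp69 from -0.0372 to 0.0723, Zfp869 from -0.0666 to 0.0374, Zfp451 from -0.0114 to 0.0888 and Zfp207 from -0.0861 to 0.001. Same-numbered libraries of the 2 groups had correlations of -0.145 to 0.160, and none correlated best with its own number, so the numbers were not taken to pair samples. The replicate block left the members called at 0. The median SE of a member's log2 fold change was 0.18, with a median 95% margin of 0.37. For a member with that margin, a smaller difference could not be told from 0 at 7 libraries per group. The margin differed between members. That of Zfp276 was narrower, and its log2 fold change of -0.28 had a 95% interval of -0.47 to -0.08, not adjusted for the number of genes tested. The counts of 24 members share at least 10% of their stretches with other genes.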
